A study of Homo sapiens with 9 samples.

Results

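Granins and neuropeptide precursors are the cargo proteins of dense-core vesicles, and 10 of their genes were followed across 9 expression arrays of a human neuroblastoma line, SK-N-AS. The genes were taken by name: the granins CHGA, CHGB, SCG2, SCG3, SCG5 and VGF, the peptide precursors CRH, VIP and NPY, and PCSK1, a convertase that cuts them. Every probe set (a group of oligonucleotides read as 1 value) that named 1 of these genes was used, which gave 10 probe sets for 9 genes of the 19775 genes represented. No probe set was paired with PCSK1 in the annotation used here, so its RNA was not analysed here. The cells carried the RE-EX1 construct with full-length NRSF or the HZ4 construct with truncated NRSF, or had no treatment. Each of the 3 series was read at 0, 24 and 48 h after treatment on 1 array per series and time. The 0 h arrays of the construct series are labelled as baseline controls treated with that construct. Nothing in the labels gives the plasmid backbone, an empty vector control or the share of cells reached. The series description speaks of triplicates and several batches, but no replicate or batch number is given, so p-values here reflect nothing beyond the scatter among the 9 arrays.

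Dense-core vesicles bud from the trans-Golgi network, where acidic granins condense together with peptide precursors. Convertases and the carboxypeptidase CPE then cut the precursors at basic residues, and PAM adds the amide group that many peptides need. Release follows calcium entry, through RAB27 and RAB3 GTPases, synaptotagmins and syntaxins. NRSF, encoded by REST, silences several of these genes outside neurons through RE1 elements, and cAMP signalling through CREB raises others. Neuroblastoma arises from the sympathoadrenal lineage, which makes such vesicles.

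Upstream stretches of members that carry a result below are printed for reference, from promoter sequences of RefSeq's GRCh38.p14 records. The promoter set used here held an entry for 7 of the 10 genes. Each of the first 5 stretches covers the 120 bases before the annotated start, 5′ to 3′ on the gene's strand, and capitals mark the letters TGACG on either strand, the core of a cAMP response element. They lie at chr15:32641590-32641709 (plus strand) for SCG5, chr7:101165570-101165689 (minus) for VGF, chr7:24284070-24284189 (plus) for NPY, chr6:152750677-152750796 (plus) for VIP and chr14:92923030-92923149 (plus) for CHGA. The SCG3 stretch lies at chr15:51681511-51681535 (plus), 9 to 33 bases after the start. Its capitals mark letters that match the left and right arms of an RE1 element. Whether this stretch acts as an RE1 element was not tested.
SCG5: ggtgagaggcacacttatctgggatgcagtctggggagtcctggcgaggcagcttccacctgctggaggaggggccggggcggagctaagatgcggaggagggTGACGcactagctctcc
VGF: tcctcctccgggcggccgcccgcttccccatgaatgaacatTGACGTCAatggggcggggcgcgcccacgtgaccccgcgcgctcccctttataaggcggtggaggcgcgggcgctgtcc
NPY: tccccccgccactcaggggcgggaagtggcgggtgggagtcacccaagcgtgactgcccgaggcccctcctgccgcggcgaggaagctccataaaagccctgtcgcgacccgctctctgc
VIP: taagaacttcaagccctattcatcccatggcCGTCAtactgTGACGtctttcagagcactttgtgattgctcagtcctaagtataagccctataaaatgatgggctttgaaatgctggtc
CHGA: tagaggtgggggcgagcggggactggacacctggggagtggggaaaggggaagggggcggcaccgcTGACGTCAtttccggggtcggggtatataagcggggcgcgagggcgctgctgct
SCG3: ttCAGCACCcacagggcGGACAGcg

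The full palindrome TGACGTCA was found between 250 bases before and 50 after the start in 3 of the 7 members with an entry, CHGA (bases −54 to −47), VGF (−79 to −72) and PCSK1 (−77 to −70). It was found in 1.85% of 35116 such windows of all genes. TGACG on either strand, which the palindrome contains, was found in 6 of the 7, all but NPY, against 24.6% of all windows. VIP held it at −89 to −85 on the minus strand and at −79 to −75 on the plus strand, and SCG5 at −17 to −13. The RE1 arms CAGCACC and GGACAG, searched on both strands, occurred in 7.75% and 20.5% of all windows. Both arms in this order, with starts at most 30 bases apart, occurred in 0.199% (70 windows), SCG3 among them at bases 11 to 31; this distance limit was set with the SCG3 sequence in view. These letters describe the windows only.

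Brightness separated the members. A probe set was taken as above background when its mean log2 signal over the arrays exceeded that of a signal of 18.3, which 13799 genes passed, and values under a floor of 8.266 were set to that floor. By this measure 8 of the 9 members were kept. SCG3, an adaptor that holds granins at the vesicle membrane, was not: its signal was 2.04, 3.81 and 11.6 at 0, 24 and 48 h under full-length NRSF, 0.924, 16.6 and 3.97 under truncated NRSF, and 10.5, 9.64 and 0.767 in cells left untreated. It lay at or below the floor on 5 of 9 arrays, so SCG3 (chromosome 15, 51681503 to 51721026) was not tested and no change can be read from it. CRH is the only member with a second probe set. The VGF probe set has an identifier that marks possible cross-hybridization, so its values are uncertain.

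The arrays were alike in scale, with a mean signal of 150.02 each after the outer 2% of values at either end were removed. The truncated 24 h array stood apart: its median correlation with the others across kept genes was 0.909 against 0.922 to 0.931, and its dimmest genes read 0.52 log2 above their mean. The full-length 0 h array had the highest 3' to 5' ratio of ACTB, a sign of RNA quality, at 4.19 against 2.25 to 3.63, and its dimmest genes read 0.32 log2 above their mean. Calls of members and pathway genes that ended without either array are given below with the value left. Calls of marker genes were not refitted without either array. REST itself (chromosome 4, 56907900 to 56935844) read 171, 268 and 274 at 0, 24 and 48 h for the full-length series, 162, 323 and 342 for the truncated one, and 177, 445 and 260 for untreated cells. Both construct arrays thus read below the untreated one at 24 h and above it at 48 h, and the labels do not say whether this probe set reads the constructs' transcripts. Of the markers of the sympathoadrenal lineage, 11 of 13 with a probe set were kept, but the catecholamine enzyme genes TH (2.79 to 43.4) and DBH (2.16 to 99.7) were not, while 10 of 10 mesenchymal markers were kept. Of markers of other cells, 0 of 3 epithelial, 0 of 1 Schwann, 1 of 3 endothelial and 2 of 2 blood genes were kept. In RNA of whole cultures, fewer cells of a kind and less RNA per cell cannot be told apart.

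**Figure D1:**
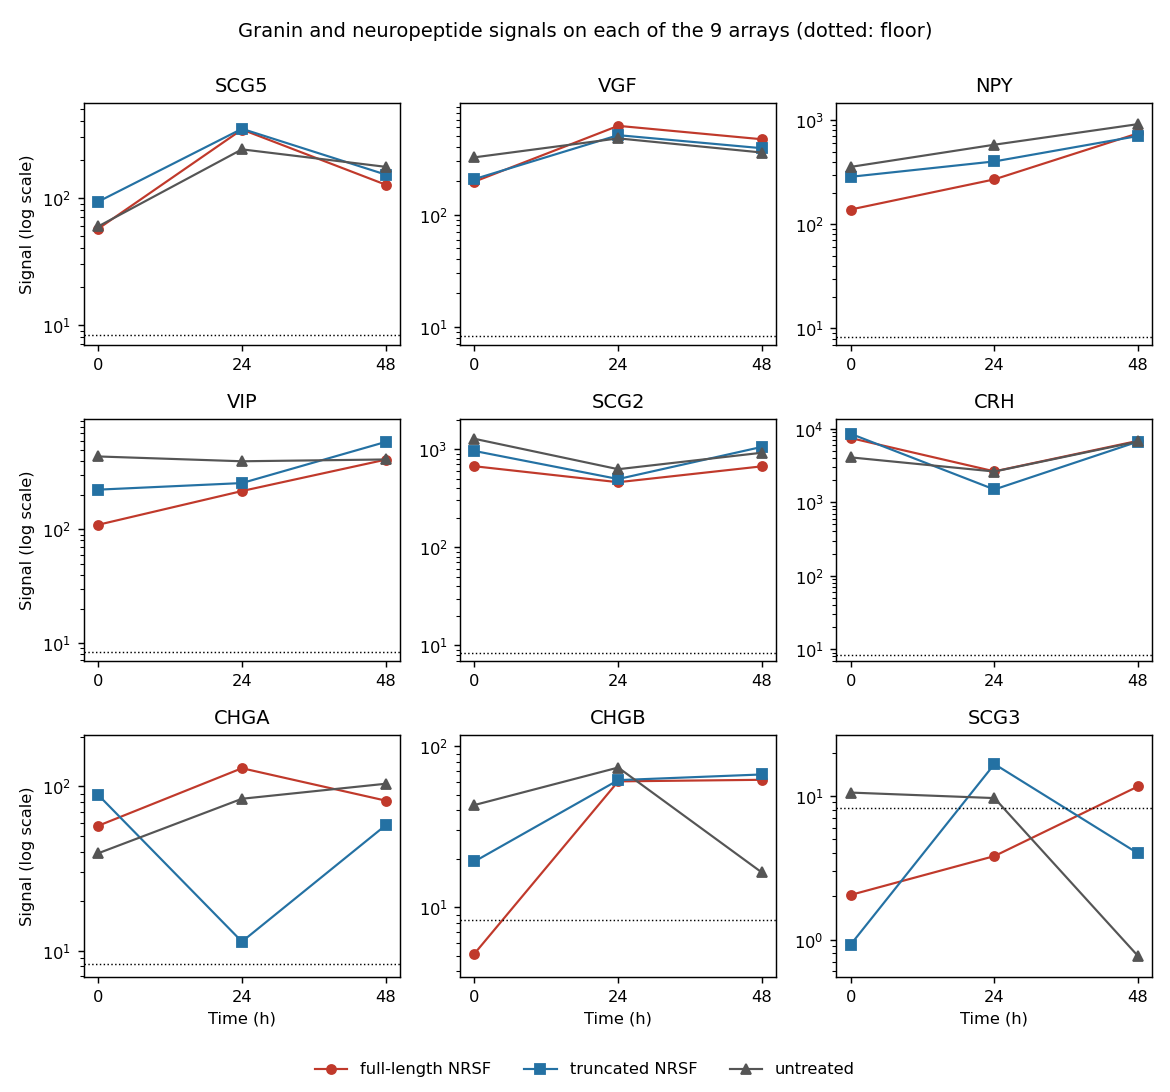
Signal (log scale) against time in h for 9 genes, with 1 point per array and a line per series; the dotted line is the floor of 8.266. SCG5, VGF and NPY lie higher at 24 and 48 h than at 0 h in every series, SCG2 and CRH dip at 24 h, and SCG3 stays near the floor.

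Times were compared first, over all series. In the fit over the 3 series, 3 members were called higher and 2 lower at 24 h and 4 higher and 0 lower at 48 h. Of these 4, VIP was higher in 2 of 3 series only, the construct series. Each contrast was fitted over all 13799 genes with limma, with series as a block, and a gene was called when its Benjamini-Hochberg adjusted p was under 0.05. At 24 h over 0 h 5 of 8 tested members were called, where 16.2% of all genes were (8.04% higher and 8.2% lower). At 48 h over 0 h 4 of 8 were called, against 8.38% of genes (4.5% higher and 3.88% lower). At 48 h over 24 h 4 of 8 were called, 3 higher and 1 lower, against 3.5% of genes (1.72% higher and 1.78% lower). The median change of the members was 0.53, 0.92 and 0.70 log2 in these contrasts, and that of all genes was −0.03, −0.01 and 0.01. The 8 members passed the filter on brightness, so these shares say nothing of SCG3 or PCSK1. No variance trend in the fit left 1 of the 5 calls at 24 h and 0 of the 4 at 48 h, and the fit without the full-length 0 h array left 4 and 1. Calls over all genes fell too, from 2242 at 24 h and 1156 at 48 h. They were 542 and 18 without the trend, and 1315 and 421 without that array.

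Some markers of cell state moved over the same hours. Of the 10 mesenchymal markers 2 were called higher and 4 lower at 24 h, and 1 higher and 4 lower at 48 h. Of all genes 8.04% were called higher and 8.2% lower at 24 h, and 4.5% and 3.88% at 48 h. FN1, the matrix protein fibronectin, fell by 1.43 ± 0.16 log2 at 24 h (limma adjusted p = 1.8e-05), while the transcription factor genes FOSL1 and SNAI2 rose by 1.56 ± 0.20 (5.8e-05) and 1.26 ± 0.15 (2.5e-05). PRRX1, a mesenchymal homeobox gene, fell by 1.2 ± 0.15 at 24 h (4.5e-05) and rose by 1.17 ± 0.15 between 24 and 48 h (0.00025). The summed mesenchymal signal was 28890 to 33030 at 0 h, 23050 to 26690 at 24 h and 25570 to 30470 at 48 h. Of the 11 sympathoadrenal markers kept only DDC, a catecholamine enzyme gene, was called at 24 h, and fell by 0.93 ± 0.20 (0.0040). This single call is near the share of all genes called lower and is no result about that list. The summed sympathoadrenal signal was 3324 to 4184, 2983 to 3531 and 3418 to 3751 at these hours. Single bright genes weigh most in these sums, VIM (9354 to 14400) in the mesenchymal and GATA3 (1346 to 1912) in the sympathoadrenal one. The sums therefore do not show how the lists moved. The part of the markers in the members' results was not tested.

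SCG5 encodes a small granin that acts as chaperone of the convertase PCSK2, and it had the largest called rise among the members at 24 h. Its signal was 57.1, 345 and 127 at 0, 24 and 48 h under full-length NRSF, 93.4, 350 and 152 under truncated NRSF, and 59.6, 241 and 176 in cells left untreated. Every 24 h array lay above every 48 h array, and every 48 h array above every 0 h array. The fitted difference at 24 h was 2.17 ± 0.27 log2 (standard error, n = 3 arrays per time; limma adjusted p = 4.8e-05), and at 48 h it was 1.14 ± 0.27 (adjusted p = 0.015). From 24 to 48 h SCG5 fell by 1.03 ± 0.27 (adjusted p = 0.043), lower in 3 of 3 series. The 24 h call held in all 14 alternatives. The 48 h call ended without the full-length series (1.13, adjusted p = 0.12) or the untreated series (0.93, 0.13) and without the full-length 0 h array (1.03, 0.087). It also ended without a filter (adjusted p = 0.089) and without the variance trend (0.11). The later fall lost its call in 9 of 14 alternatives. Among these were the fits without the truncated 24 h array (−1.06, 0.13) or the full-length 0 h array (−1.03, 0.054). Leaving out a whole series also ended it, be it the full-length (−0.83, 0.29), the truncated (−0.95, 0.20) or the untreated one (−1.32, 0.055). SCG5 lies on chromosome 15 (32641710 to 32697092, GRCh38.p14), where the readthrough gene ARHGAP11A-SCG5 is also annotated, and signal of the 2 transcripts was not separated.

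VGF encodes a granin-like precursor whose peptides regulate energy balance and synaptic strength, and it was higher at both later times than at 0 h. Its signal was 196, 615 and 467 at 0, 24 and 48 h in the full-length series. The truncated series read 207, 508 and 389, and untreated cells read 323, 476 and 356. All 24 h arrays were above all 48 h arrays, and these above all 0 h arrays. The differences over 0 h were 1.17 ± 0.21 at 24 h (adjusted p = 0.0012) and 0.77 ± 0.21 at 48 h (0.032), higher in 3 of 3 series at both times. That between 48 and 24 h was −0.40 ± 0.21 and was not called (adjusted p = 0.34). Without the full-length series both calls ended, with values of 0.93 (adjusted p = 0.056) and 0.53 (0.33), and without the truncated series the 48 h value was 0.70 (0.13). Without the full-length 0 h array the 48 h value was 0.53 (adjusted p = 0.23). The 24 h call of VGF ended in 2 of 14 alternatives and its 48 h call in 6. Without the variance trend the adjusted p was 0.063 at 24 h and 0.20 at 48 h. At 48 h it was 0.16 without a filter and 0.081 with probe sets averaged. VGF lies on chromosome 7 (101162509 to 101169952).

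NPY encodes neuropeptide Y, the co-transmitter of noradrenaline in sympathetic nerves, and it climbed at each step. Signals at 0, 24 and 48 h were 139, 271 and 750 under full-length NRSF, 287, 403 and 707 under truncated NRSF, and 357, 583 and 920 in cells left untreated. The 48 h arrays lay above all others, while the 0 and 24 h arrays overlapped between series. NPY rose by 0.72 ± 0.21 log2 at 24 h (adjusted p = 0.024) and by 1.70 ± 0.21 at 48 h (0.00013), in 3 of 3 series each. The step from 24 to 48 h was 0.98 ± 0.21 (adjusted p = 0.014). Without the truncated 24 h array the 24 h value was 0.74 (adjusted p = 0.064) and the later step 0.96 (0.060), neither of them called. Without the full-length series the 24 h value was 0.60 (0.10) and the later step 0.73 (0.13), and without the untreated series the 24 h value was 0.73 (0.090). Without the full-length 0 h array the 24 h value was 0.48 (0.20). The 24 h call ended in 8 of 14 alternatives and that of the later step in 6. Without the variance trend their adjusted p was 0.16 and 0.22, and without the series block 0.12 and 0.085. Without a filter it was 0.14 and 0.16, and with probe sets averaged 0.061 and 0.058. The 48 h call ended in 1 of 14 alternatives, without the variance trend (adjusted p = 0.074). NPY lies on chromosome 7 (24284190 to 24291862).

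VIP encodes vasoactive intestinal peptide, a transmitter that raises cAMP in its target cells and that some neuroblastoma lines make. It read 110, 218 and 412 at 0, 24 and 48 h for the full-length series, 224, 256 and 590 for the truncated one, and 439, 398 and 413 for untreated cells. Both construct series climbed, and the untreated series was nearly flat. VIP was called at 48 h (1.07 ± 0.28, adjusted p = 0.026) with a higher value in 2 of 3 series, and not at 24 h (0.35 ± 0.28, adjusted p = 0.47). The 48 h call ended in 7 of 14 alternatives. Among these were the fits without the full-length series (0.65, adjusted p = 0.34) and without the truncated series (0.91, 0.13). The value stayed at 1.07, uncalled, without a filter (adjusted p = 0.21) or with probe sets averaged (0.098). It did so too without the variance trend (0.22) or the series block (0.075). Without the full-length 0 h array VIP stood at −0.02 at 24 h (adjusted p = 0.98) and at 0.70 at 48 h (0.21). VIP lies on chromosome 6 (152750797 to 152759760). The blood marker PTPRC rose at 48 h too, by 1.05 ± 0.29 (adjusted p = 0.035), where 4.5% of all genes were called higher. This call was not refitted without single arrays or series. HBB, the other blood marker kept, was not called. HBB read 34, 71.2 and 28.7 at 0, 24 and 48 h under full-length NRSF and 31.3, 45.3 and 17.4 under truncated NRSF. In cells left untreated it read 15.3, 24.7 and 43.9. The summed signal of the 2 blood markers was 91.7 to 122 at 0 h, 146 to 209 at 24 h and 163 to 218 at 48 h, and neither marker was at 0. PTPRC was the brighter of the 2 on each array, so the sum mainly follows PTPRC. The part of these markers in the peptide results was not tested.

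**Figure D2:**
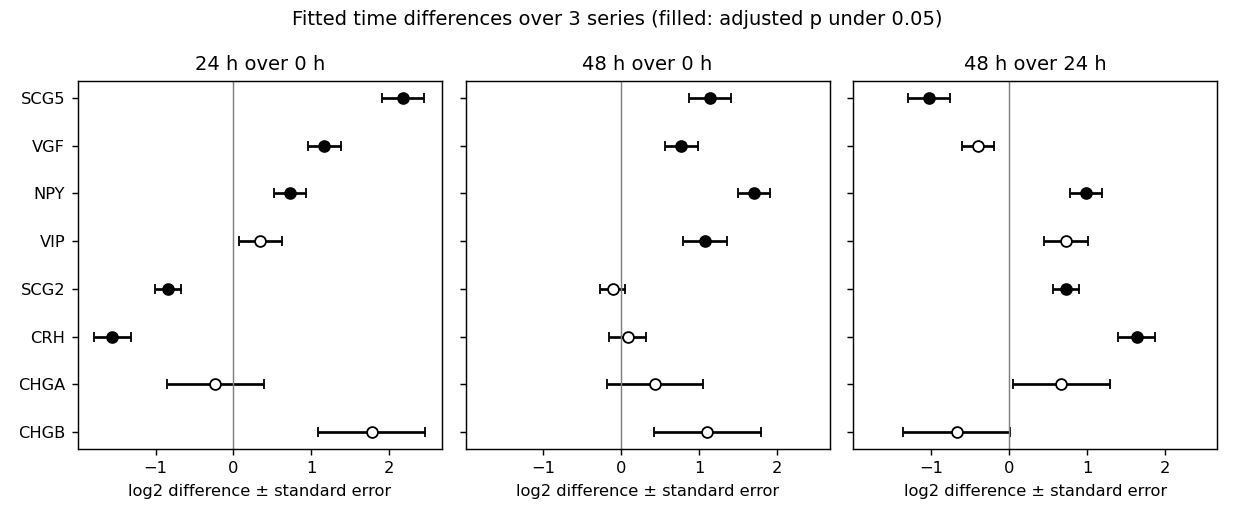
Fitted log2 differences between times with standard errors for the 8 tested members, from 3 arrays per time; filled points have a limma adjusted p under 0.05. SCG5 stands at 2.17 in the 24 h panel and CRH at −1.55, and in the 48 h over 24 h panel they stand at −1.03 and 1.63.

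SCG2 encodes secretogranin II, precursor of secretoneurin, and it dipped at 24 h. Its signal was 670, 461 and 669 at 0, 24 and 48 h under full-length NRSF, 960, 496 and 1056 under truncated NRSF, and 1277, 625 and 921 in cells left untreated. The 24 h arrays were the lowest, with no overlap, and the 0 and 48 h arrays overlapped. SCG2 fell by 0.84 ± 0.16 log2 at 24 h (adjusted p = 0.0022), lower in 3 of 3 series, and stood at −0.11 ± 0.16 at 48 h (adjusted p = 0.74). The 24 h call ended in 1 of 14 alternatives, without the variance trend (adjusted p = 0.070). The step from 24 to 48 h was 0.73 ± 0.16 (adjusted p = 0.020) and lost its call in 8 of 14 alternatives. Among these were the fits without the truncated 24 h array (0.61, adjusted p = 0.12), without the full-length series (0.82, 0.098), without the truncated series (0.55, 0.18) and without the untreated series (0.81, 0.068). SCG2 lies on chromosome 2 (223596940 to 223602361).

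CRH encodes corticotropin-releasing hormone, the peptide that starts the stress response of the pituitary, and it fell at 24 h and rose again between 24 and 48 h. On its main probe set CRH read 7456, 2630 and 6845 at 0, 24 and 48 h for the full-length series, 8525, 1491 and 6681 for the truncated one, and 4074, 2615 and 6707 for untreated cells. The 24 h arrays were below all others. The difference at 24 h was −1.55 ± 0.23 log2 (adjusted p = 3e-04), lower in 3 of 3 series, at 48 h it was 0.08 ± 0.23 (0.88), and from 24 to 48 h it was 1.63 ± 0.23 (0.0008). The second probe set read 695, 272 and 802 at these times under full-length NRSF, 1143, 216 and 588 under truncated NRSF, and 452, 345 and 643 in cells left untreated. In a fit of every probe set it moved the same way, by −1.38 ± 0.26 at 24 h (adjusted p = 0.0015) and by 1.30 ± 0.26 from 24 to 48 h (0.010). Without the truncated 24 h array the main probe set stood at −1.18 at 24 h (adjusted p = 0.0024) and at 1.26 between 24 and 48 h (0.0065). The 24 h call of the main probe set ended in 1 of 14 alternatives, without the variance trend (adjusted p = 0.065). CRH lies on chromosome 8 (66176376 to 66178464).

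CHGA and CHGB encode chromogranins A and B, the bulk granins of chromaffin cells and the serum markers of neuroendocrine tumours, and neither was called in a time contrast fitted on all 9 arrays. CHGA read 57.6, 129 and 82 at 0, 24 and 48 h under full-length NRSF, 88.7, 11.3 and 58 under truncated NRSF, and 39.2, 84.1 and 104 in cells left untreated. Its 24 h value was thus higher in 2 series and lowest of all on the truncated array that stood apart. The fitted 24 h difference of CHGA was −0.23 ± 0.62 (adjusted p = 0.85), and 0.87 ± 0.46 without that array (0.28). CHGB read 5.14, 60.6 and 61.9 for the full-length series, 19.2, 61.6 and 66.8 for the truncated one, and 43.2, 73.8 and 16.4 for untreated cells. The 24 h arrays of CHGB were above all 0 h arrays, with a difference of 1.78 ± 0.68 (adjusted p = 0.093), in which the full-length 0 h array was set to the floor. Without the untreated series the 24 h difference of CHGB was 2.28 (adjusted p = 0.048) and was called, and that at 48 h was 2.35 (0.072), against 1.10 ± 0.68 (0.37) on all arrays. CHGA lies on chromosome 14 (92922664 to 92935285) and CHGB on chromosome 20 (5911510 to 5925353).

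The construct series were next set against untreated cells. With 1 array per series and hour a difference at an hour has no replicate check, and the comparisons with untreated cells share the untreated arrays. NPY was lower in the full-length series than in untreated cells at each hour, with differences of −1.36, −1.11 and −0.29 log2 at 0, 24 and 48 h, and likewise in the truncated series, with −0.32, −0.53 and −0.38. SCG2 stood at −0.93, −0.44 and −0.46 with full-length NRSF and at −0.41, −0.33 and 0.20 with truncated NRSF. VIP stood at −2.0, −0.87 and −0.01 with full-length NRSF and at −0.97, −0.64 and 0.51 with truncated NRSF. CHGB stood at −2.38, −0.29 and 1.91 with full-length NRSF and at −1.17, −0.26 and 2.02 with truncated NRSF. VGF stood at −0.72, 0.37 and 0.39 with full-length NRSF and at −0.64, 0.10 and 0.13 with truncated NRSF. These 5 genes were already lower at 0 h in both construct series than in untreated cells. CHGA stood at 0.56, 0.62 and −0.34 with full-length NRSF. With truncated NRSF it stood at 1.18, −2.89 and −0.84, the 24 h value resting on the array that stood apart. SCG5 stood at −0.06, 0.52 and −0.47 with full-length NRSF and at 0.65, 0.54 and −0.20 with truncated NRSF. Of all genes kept, 13.2% to 18.2% differed by 2-fold or more in a comparison of 1 such pair of arrays. On its main probe set CRH was higher at 0 h in the full-length (0.87) and truncated (1.07) series. At 48 h this probe set was within 0.03 log2 of untreated cells in both. The second CRH probe set was not as close at 48 h, at 802 with full-length and 588 with truncated NRSF, against 643 in untreated cells.

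Across the 3 hours, limma called 0 of 8 members between the full-length series and untreated cells, 0 of 8 between the truncated series and untreated cells and 0 of 8 between both construct series. Of all genes 0.0652%, 0% and 0.0217% were called. At an unadjusted p under 0.05, NPY, SCG2 and VIP passed in the first comparison, 0 members in the second, and the same 3 in the third, where 9.64%, 5.17% and 6.49% of genes passed. The difference of the full-length series from untreated cells was −0.92 ± 0.21 for NPY (adjusted p = 0.12), −0.61 ± 0.16 for SCG2 (0.20) and −0.96 ± 0.28 for VIP (0.25), n = 3 arrays per series. Without the full-length 0 h array these were −0.68 for NPY (0.60), −0.51 for SCG2 (0.71) and −0.59 for VIP (0.78). For SCG5 it was −0.0029 ± 0.27 and for VGF 0.02 ± 0.21.

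**Figure D3:**
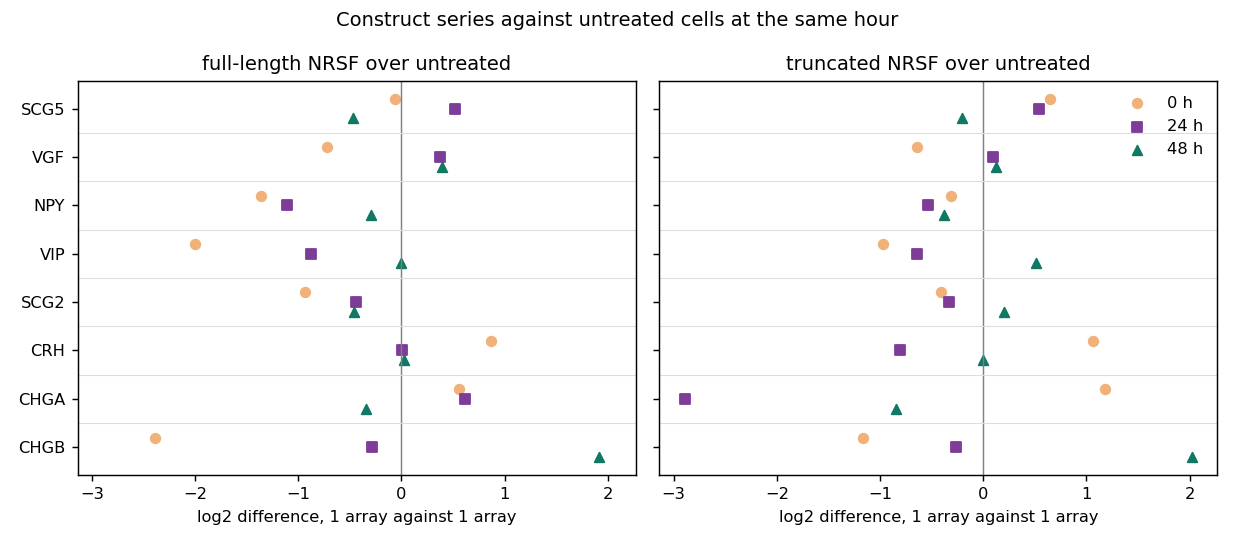
Log2 difference between a construct array and the untreated array of the same hour for the 8 tested members, 1 array against 1 array, with full-length NRSF in the left panel and truncated NRSF in the right. NPY lies below 0 at all 3 hours in both panels, and VIP with full-length NRSF lies at −2.0 at 0 h and −0.01 at 48 h.

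A further fit asked whether a construct series changed from its 0 h array by more than untreated cells did, reading 24 and 48 h as repeats of 1 effect. It called 0 of 8 members for full-length NRSF, for truncated NRSF and between the constructs, against 0.00725%, 0.0362% and 0.0145% of genes. At an unadjusted p under 0.05 it passed 4 members for full-length NRSF (CHGB, CRH, VGF and VIP), 2 for truncated NRSF (CHGA and CRH) and 1 between constructs (CHGA), where 4.19%, 7.65% and 6.18% of genes passed. For full-length NRSF net of untreated cells VIP stood at 1.56 ± 0.47, VGF at 1.10 ± 0.37, CRH at −0.85 ± 0.35 and CHGB at 3.20 ± 1.29, each with an adjusted p of 1.00. The CHGB value depends on the floor, under which its full-length 0 h array lay, and was 1.52 with the floor at the 40th percentile and 3.88 at the 10th. For truncated NRSF CRH stood at −1.47 ± 0.35 (adjusted p = 0.15) and CHGA at −3.05 ± 1.09 (0.46). Without the truncated 24 h array these were −1.08 ± 0.41 for CRH (0.43) and −1.78 ± 0.93 for CHGA (0.75), and CHGA between the constructs was 1.36 ± 0.93 (0.98), against 2.63 ± 1.09 (0.73) with it. All these values are taken over the 0 h arrays, on which VIP, VGF and CHGB were lower and CRH and CHGA higher with both constructs than without, and each construct has 1 such array.

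Genes that process and release the cargo were read from lists whose choice followed earlier results of these data. Of all genes 8.04% were called higher and 8.2% lower at 24 h, and shares of a list near these are no result about it. Of 8 kept processing enzymes 1 rose and 3 fell at 24 h, and without the variance trend the number called was 1, against 4. Over all genes 542 were called without the trend, against 2242. CTSL, a cathepsin that also cuts prohormones, rose by 1.03 ± 0.14 log2 (adjusted p = 0.00012). CPD and CPE, carboxypeptidases that trim basic residues, fell by 1.22 ± 0.25 (0.0031) and 0.94 ± 0.21 (0.0064), and PAM, the amidating enzyme, fell by 0.68 ± 0.13 (0.0025). CPE read 617, 370 and 465 at 0, 24 and 48 h under full-length NRSF, 689, 220 and 336 under truncated NRSF, and 471, 352 and 507 in cells left untreated. The median of the list was −0.25. The CPE call ended without the truncated 24 h array (−0.73, adjusted p = 0.051), the full-length series (−1.03, 0.065) or the truncated series (−0.58, 0.077), and that of CPD when its probe sets were averaged (−0.25, 0.57).

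Of 20 kept genes of vesicle build-up and exocytosis 2 rose and 4 fell at 24 h, with a median of −0.07. The 6 calls came to 1 with probe sets averaged, 2 without the variance trend, 2 without the full-length series, 3 without a filter and 3 without the full-length 0 h array. SYT11, a synaptotagmin, rose by 1.35 ± 0.20 (adjusted p = 0.00023), and STX1A, a syntaxin of the fusion complex, rose by 1.24 ± 0.30 (0.010). SYTL4, a RAB27 effector that docks granules, fell by 1.27 ± 0.29 (0.0066), and PTPRN2, a transmembrane protein of the vesicle, fell by 0.83 ± 0.23 (0.019). The granule GTPases RAB3D and RAB27A fell by 0.78 ± 0.24 (0.038) and 0.75 ± 0.16 (0.0038). SYTL4 read 159, 87.7 and 202 at 0, 24 and 48 h under full-length NRSF, 110, 37.3 and 178 under truncated NRSF, and 140, 53.9 and 217 in cells left untreated, a dip at 24 h in every series like that of CRH and SCG2. With probe sets of a gene averaged, SYTL4 (−0.24, adjusted p = 0.80), SYT11 (0.77, 0.15), PTPRN2 (−0.84, 0.054), RAB27A (−0.50, 0.074) and RAB3D lost their calls, and RAB3D turned to 0.19 (0.85). STX1A lost it without the truncated 24 h array (1.02, 0.076), the full-length 0 h array (1.14, 0.061), the full-length series (1.07, 0.15) or the truncated series (0.95, 0.11). PTPRN2 lost it without the truncated 24 h array (−0.70, 0.098), the full-length 0 h array (−0.79, 0.098), the full-length series (−0.79, 0.15) or the truncated series (−0.81, 0.063), and SYTL4 also without the untreated series (−1.21, 0.052). RAB3D lost it without the truncated 24 h array (−0.86, 0.063), the full-length 0 h array (−0.53, 0.27), the full-length series (−0.64, 0.21) or the untreated series (−0.73, 0.14), and RAB27A without the full-length series (−0.72, 0.066).

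Of 14 other kept peptide precursors only ADM, the vasodilator adrenomedullin, was called at 24 h (1.89 ± 0.17, adjusted p = 2.7e-06), and the median was −0.21. Of 5 kept receptors and binding proteins of the members' peptides 1 passed the threshold, NPY1R, a receptor of NPY. NPY1R read 4.64, 40.1 and 47.7 at 0, 24 and 48 h for the full-length series, 7.75, 44 and 49.3 for the truncated one, and 0.653, 25.3 and 40.6 for untreated cells. Its 0 h values were all under the floor, so it passed the filter only through the later arrays, where it is high, and its test is not read as a result. Of 14 kept genes of cAMP signalling only CREM, a CREB family factor with repressor isoforms, was called at 24 h, by 1.38 ± 0.20 (adjusted p = 0.00024), higher on each 24 h array (444, 635 and 479) than at 0 h in its series (213, 176 and 203). The single calls among 14 precursors and 14 cAMP genes are near the share over all genes. At 48 h, where 4.5% of all genes were called higher and 3.88% lower, 1 gene of each list was called higher, and CPD and PTPRN2 were called lower. CTSL stood at 0.77 ± 0.14 (adjusted p = 0.0030; 0.67 and 0.056 without the untreated series), SYT11 at 1.57 ± 0.20 (0.00016), CPD at −0.97 ± 0.25 (0.023) and PTPRN2 at −1.06 ± 0.23 (0.0087). CPD lost the call without the full-length 0 h array (−1.07, 0.073) and when the full-length (−1.10, 0.13), truncated (−0.82, 0.087) or untreated arrays (−0.99, 0.085) were left out, and PTPRN2 lost it without the full-length 0 h array (−1.01, 0.069), the full-length series (−1.01, 0.13) or the untreated series (−0.89, 0.088). The medians of the 5 lists at 48 h lay between −0.43 and 0.33, with ADM at 1.43 ± 0.17 (0.00013) and CREM at 0.78 ± 0.20 (0.026) called. CREM lost this call without the full-length 0 h array (0.86, adjusted p = 0.072), the full-length series (0.79, 0.16) or the truncated series (0.56, 0.17).

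**Figure D4:**
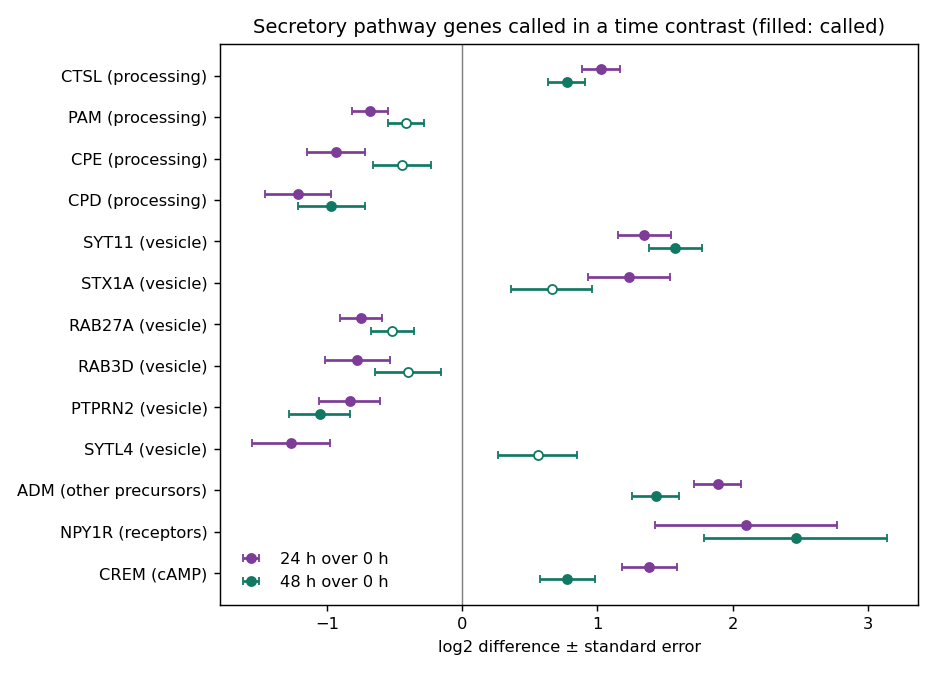
Fitted log2 differences over 0 h with standard errors at 24 and 48 h for the 13 genes of the 5 pathway lists that were called in a time contrast, filled where called. CPE, CPD, PAM, SYTL4 and PTPRN2 lie below 0 at 24 h, and ADM and CREM above; the 0 h arrays of NPY1R were all at the floor.

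The genes most like each called member in log2 signal over the 9 arrays were listed by Pearson's r as a description, since the arrays share their times and series. For SCG5 these were NOCT (0.987), C3orf38 (0.987) and CCNT2 (0.976). For VGF they were ASAH2B (0.980), SMAD7 (0.968) and CCNYL1 (0.967). For NPY they were FARSB (0.957), PSMD11 (0.955) and EVA1A (0.950), and for VIP RFC5 (0.954), FARSB (0.942) and LINC00886 (0.933), so FARSB stands on both lists. For SCG2 they were PAICS (0.984), DNAJC4 (0.948) and VPS33A (0.947). For CRH they were PI3 (0.974), ABCA1 (0.973) and HSPA2 (0.973). HSPA2, a heat shock protein gene, read 1371, 546 and 1358 at 0, 24 and 48 h under full-length NRSF, 1823, 298 and 1280 under truncated NRSF, and 1038, 730 and 1248 in cells left untreated, with a dip at 24 h in every series.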

How the data were processed

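RNA of 9 SK-N-AS samples was hybridised to Affymetrix arrays. The deposited values are linear signal intensities from the GCOS software, per the submitters' processing notes; no version is given in the sources used here. The deposited arrays share 1 trimmed mean, as their values show, and this scaling was kept. Of 54675 probe sets, 41091 named 1 gene (41037 through Entrez IDs) and were used; 1801 named several, 11721 were unnamed here and 62 were controls. The brightest probe set by mean stood for a gene. Signals were floored at their 25th percentile, log2 was taken, and genes with a mean log2 above the 40th percentile of probe sets were kept. limma 3.58.1 in R 4.3.3 (lmFit, eBayes with trend, two-sided, Benjamini-Hochberg over 13799 genes) fitted series and time (4 residual degrees of freedom), or these with a term per construct at 24 and 48 h (2). The fits were tested on simulated data. Replicate precision is limited by the number of arrays. Members, lists and tests were chosen with earlier results of these data known. Named genes were the members, REST, up to 4 called genes per list by size at 24 h, and 3 genes most like each called member; marker genes, RAB3D and RAB27A were named after their values were seen. Protein sequences were not used here. Alternatives changed the floor, filter, normalization, probe set choice, variance trend, series block and arrays.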

Additional observations from a re-analysis of the deposited data

Results flagged for a closer look

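The effects at 24 and 48 h, each over 0 h, differed by the limma test of their difference for 4 members (48 h minus 24 h, log2, n = 3 arrays per time): CRH at 1.63, NPY at 0.98, SCG2 at 0.73 and SCG5 at −1.03. The sign was the same in 3 of 3 series for each of these, which adds no support because the test was fitted on the same series. Of all genes 3.5% were called in this contrast. The call was lost in 9 of 14 alternatives for SCG5, 8 for SCG2, 6 for NPY and 2 for CRH. Groups of 1 array hold too few samples to look for an outlying sample.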

How the results depend on the processing

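The 13 calls of a member in a time contrast kept their direction in all 14 alternatives, and their call in 126 of 182 member and setting pairs. The number called at 24 h was 5, against 1 without the variance trend and 3 without the full-length series. At 48 h it was 4, against 1 without a filter on dim genes, 2 with the mean of all probe sets, 0 without the variance trend, 1 without the full-length series, 1 without its 0 h array alone and 2 without the truncated series. Between 48 and 24 h it was 4, against 0 without a filter, 1 with the mean of all probe sets, 0 without the variance trend, 2 without the series block (no replicate block), 1 without either the truncated 24 h array or the full-length series, and 2 without either the truncated or the untreated series. Without a filter or without the trend, 0 of all genes were called in this contrast. Over all genes 2242 were called at 24 h, against 542 without the trend and 890 without the full-length series. At 48 h 1156 of all genes were called, against 394 without a filter, 477 with probe sets averaged and 18 without the trend. Without the full-length series 212 were called at 48 h, 421 without its 0 h array alone and 660 without the truncated series. At both times each fit with a lower member count also called fewer of all genes. The reverse did not hold. At 24 h the fit without the truncated series called fewer of all genes and still called 5 members. At 48 h the fit with the floor at the 10th percentile did so with 4. Whether the lost member calls follow the loss over all genes was not tested. The 6 construct contrasts called 0 members in each alternative run. Of values not called, CHGA turned at 24 h to 0.10 with the floor at the 40th percentile, 0.87 without the truncated 24 h array and 1.13 without the truncated series. CHGA turned between 48 and 24 h to −0.44 without that array and −0.18 without that series, and at 48 h to −0.052 without the untreated series. Without the untreated series CHGB turned to 0.075 between 48 and 24 h, and SCG2 to 0.068 and CRH to −0.24 at 48 h. VIP at 24 h was 0.50 without the truncated 24 h array and turned to −0.022 without the full-length 0 h array. That array left out, CHGA was −0.60 at 24 h and 0.67 between 48 and 24 h. CHGB was called at 24 h without the untreated series (2.28). With probe sets averaged RAB3D turned to 0.19 at 24 h and 0.30 at 48 h. The cause was not tested; fits without a series hold fewer arrays. Signals near the floor limit CHGB, SCG3 and NPY1R. Chosen after seeing the data were the fits without the full-length 0 h array, those of the net construct effects without the truncated 24 h array and those of the pathway genes. The net construct effect of full-length NRSF cannot be had without its 0 h array.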

Other observations

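On the main CRH probe set the 3 readings at 48 h lay between 6681 and 6845, while those at 0 h lay between 4074 and 8525. On the second CRH probe set they were less close at 48 h, between 588 and 802, and lay between 452 and 1143 at 0 h. CHGB was lower at 48 h than at 24 h in untreated cells alone (16.4 against 73.8).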
